A study of Mus musculus with 44 samples.

Results

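The replication-dependent histone genes were followed through a B cell differentiation time course of mouse blood progenitors. The members were all rows of the deposited expression table whose symbol begins with Hist1h, Hist2h, Hist3h or Hist4h, which gave 68 of 23234 genes. By the letters of the symbol they comprised 6 linker histone H1 genes, 18 H2A, 19 H2B, 12 H3 and 13 H4 genes. Of these, 66 reached at least 1 FPKM (fragments scaled to transcript length and to library size) in at least 3 of 42 libraries and were tested. The other 2, Hist1h1t and Hist1h2aa, are best known from testis and were not tested.

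The libraries came from induced leukocyte stem (iLS) cells, multipotent progenitors made from C57BL/6J fetal liver with Id3-ERT2, a fusion of the transcriptional inhibitor Id3 to a hormone receptor domain that 4-hydroxytamoxifen (4-OHT) switches on. Before the start the cells grew on TSt-4 stromal feeder cells with IL-7 at 20 ng/mL, 10 ng/mL of both SCF and Flt-3L, and 40 nM 4-OHT. Differentiation was started on the same feeder with IL-7 at 5 ng/mL and without 4-OHT, so Id3-ERT2 was carried by every group, and the 0 h group alone represents the maintained state. The 44 libraries of poly(A)-selected RNA covered 16 time points, with 3 libraries at each of 14 of them and 1 library at 120 h and at 168 h. Nothing in the labels states that replicates were separate cultures, and p-values then reflect spread among libraries that may be technical. Removal of the feeder cells ahead of RNA extraction is not described either.

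Histones package DNA: H2A, H2B, H3 and H4 form the core of the nucleosome, and H1 binds the DNA between nucleosomes. The genes studied here lie in clusters, are transcribed mainly in S phase, and supply the bulk of histone protein while DNA is copied. Their messenger RNAs usually end in a conserved stem-loop, bound by the stem-loop binding protein Slbp, instead of a poly(A) tail, so poly(A) selection depletes them. A few of these genes, among them Hist1h1c, Hist1h2bc and Hist2h2be, are known to give polyadenylated transcripts as well.

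The stem-loop was searched for in the GENCODE M21 coding transcripts (build GRCm38), within 200 bases after the stop codon. It was found without a mismatch in 46 of the 68 members. In 15 members the annotated transcript ended before it, in 6 it was not found, and 1 had no coding transcript. The sequences below are shown because they mark the message end that poly(A) selection would miss, and because they belong to members described further on. The stem-loop is in capitals and the 5 bases on each side are in lower case, 5′ to 3′, as DNA letters.
Hist1h1c (chr13:23739512-23739527, + strand): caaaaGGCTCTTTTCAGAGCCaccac
Hist3h2a (chr11:58955172-58955187, + strand): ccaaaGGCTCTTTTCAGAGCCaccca
Hist2h2aa2 (chr3:96239784-96239799, - strand): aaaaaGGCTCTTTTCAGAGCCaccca
Hist1h3a (chr13:23761890-23761905, - strand): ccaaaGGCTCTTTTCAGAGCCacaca
Hist1h4i (chr13:22040966-22040981, - strand): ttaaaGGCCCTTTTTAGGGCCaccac
Hist1h4n (chr13:21831798-21831813, - strand): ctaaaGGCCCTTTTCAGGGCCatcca
Hist1h4c (chr13:23698089-23698104, - strand): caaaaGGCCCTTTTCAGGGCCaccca
Hist1h4b (chr13:23757366-23757381, + strand): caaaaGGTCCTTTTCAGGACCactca
The form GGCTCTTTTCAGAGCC was carried by 26 members from the H1, H2A, H2B and H3 families. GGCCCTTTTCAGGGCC was carried by 7 members, all of the H4 family. Hist1h4i shared its form, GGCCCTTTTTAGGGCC, with Hist2h4 only.

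In 23 members the annotated transcript ran at least 100 bases past the stem-loop, by 840 bases in Hist1h1c, 330 in Hist1h4i and 1643 in Hist3h2a. In the other 23 it ended sooner, at 35 bases in Hist2h2aa2. The median over members of the mean FPKM over 44 libraries was 2.13 in the first set and 3.14 in the second. The annotated Hist1h2bc transcript had 2 exons, with 742 bases after the stop codon and no stem-loop found, and that of Hist2h2be had 2192 bases after the stop codon and none found.

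Coding sequences of these genes are much alike, and that limits what a value of 1 member means. The median member shared 51.9% of the 50-base words of its longest annotated transcript with another annotated gene, on either strand. These words include untranslated parts, and the other gene need not be a histone gene. For Hist3h2a the gene most shared with was Trim17, so the share does not measure likeness of coding sequences alone. In 12 members over 90% of words were shared, and in 8 under 10%. Hist2h2aa1 and Hist2h2aa2 shared 100% of theirs, Hist1h4i 28.9%, and Hist1h1c 8.54%. In the deposited values, 11 members fell into pairs with an identical value above 0 in at least 10 of 44 libraries. Hist1h2bq and Hist1h2br were identical in 39 libraries, and Hist1h4a, Hist1h4b, Hist1h4c, Hist1h4j and Hist1h4k were linked by such pairs. How fragments that match several genes were assigned is not given in the sources used here, so these members are uncertain one by one and are not independent of each other.

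As a group the histone genes were low in every library. Their summed FPKM ranged from 71.0 to 535, which was 0.0138% to 0.0829% of the library total, and between 3 and 23 of the 68 were listed at 0. The sum was 419 ± 101 (SD, n = 3) at 0 h. It was 144 ± 34.0 by 6 h, 111 ± 35.6 by 24 h, 203 ± 12.9 by 72 h and 247 ± 80.3 by 144 h. The single libraries stood at 230 at 120 h and 241 at 168 h. The 3 libraries at 0 h, from 354 to 535, did not overlap those at 6 h (113 to 180), 24 h (71.0 to 139) or 144 h (199.6 to 340). Hist1h1c, Hist1h2bc, Hist1h4i, Hist2h2aa2 and Hist3h2a led the members by mean FPKM over 44 libraries, at 12.8, 12.2, 10.6, 9.24 and 8.78. They were followed by Hist1h4b at 5.79, Hist2h2aa1 at 5.39 and Hist2h2ac at 5.33.

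The composition of the libraries moved over the same hours. The summed FPKM of 22 stromal markers (collagens and other matrix and contractile genes) was 1284 ± 924 at 0 h and 11145 ± 664 by 6 h, then 8011 ± 743 by 24 h and 2359 ± 623 by 144 h. That of 18 blood-cell markers was 2796 ± 412, 904 ± 35.0, 692 ± 258 and 2193 ± 217 at the same times. None of these markers was listed at 0 in every library of a time point. In bulk RNA, fewer blood cells in a library and less histone RNA per cell cannot be told apart. Library codes fell into 6 runs of consecutive numbers. No run held both 0 h and a time from 48 h on, so 72 h and 144 h have no within-run value against 0 h, and a fit with runs as a block reaches them only through runs linked by other times. The total FPKM per library was 516025 to 701705, and relative depth, estimated from the smallest values, spanned 4.14-fold.

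The question of the time course is what changes as the progenitors leave the maintained state. Across all times, 41 of 66 tested histone genes differed from 0 h in limma's F test at a Benjamini-Hochberg adjusted p under 0.05, against 56% of all 13907 genes tested. All 5 H1 genes tested did so, with 9 of 17 H2A, 14 of 19 H2B, 5 of 12 H3 and 8 of 13 H4 genes. The count fell to 15 without replicate 1, 15 without replicate 2 and 22 without replicate 3. It was also 18 with each library scaled to its blood-cell markers, and 18 with the mean of the stromal markers as a covariate.

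At 6 h, histone genes were lower than at 0 h. Of the 66, 39 were called lower (limma, adjusted p under 0.05), against 19.2% of all genes. None was called higher, with 19% of all genes called so, and none was higher at an unadjusted p under 0.05. The median change was -1.18 on the log2(FPKM + 1) scale, a scale that understates changes of genes near 1 FPKM, against -0.06 over all genes. By family, 3 of 5 H1, 8 of 17 H2A, 11 of 19 H2B, 8 of 12 H3 and 9 of 13 H4 genes fell, with medians of -0.95, -0.94, -1.18, -1.61 and -1.59. In 37 of the 39, the libraries of the 2 times did not overlap. That count was not made over all called genes, so it is not read as a trait of the histone genes. Within the 3 library runs that hold both times, the median change was -0.72, -1.20 and -1.53. Without 0 h replicate 2 the count was 19, without 6 h replicate 1 it was 22, and without 6 h replicate 2 it was 24. With a pseudocount of 0.1 it was 24.

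The direction of the change for a single gene depended on the scale. Scaling whole libraries alters the distance of the histone genes from other genes only through the pseudocount, so that distance is no check on library composition. Each library was scaled to the mean log2 level of its blood-cell markers, which multiplies all FPKM of a library by the same factor. On log2(FPKM + 1), genes near or below 1 FPKM then move less than abundant genes. The median of all genes at 6 h moved to 1.21. On that scale 71% of all genes were called higher and 0.777% lower at 6 h. Of the histone genes 4 were called higher and 1 lower, and their median was -0.18, which is 1.39 below that of all genes, where it was 1.13 below without the scaling. At 24 h the median of all genes became 1.66, with 79% called higher and 1.04% lower. The histone genes then had a median of -0.07, with 12 called higher and 9 lower. Values of single genes on this scale, given further on, are to be read against those medians of all genes. For genes of low FPKM, many histone genes among them, the medians are only a rough baseline. When the stromal mean entered as a covariate, no member was called at either time, nor were more than 4 of all 13907 genes at each. The share of the fall that went with library composition was not tested.

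At 24 h the histone genes stood at their lowest mean level of the time course, with replicate 3 the lowest of all libraries. Their mean log2(FPKM + 1) was 0.77 in that library and 1.18 and 1.30 in the other 24 h libraries. The 10 h libraries, at 0.99, 1.16 and 1.30, overlapped these. At 24 h 47 of 66 were called lower than at 0 h, against 22.5% of all genes. None was called higher, against 20.8%, and none reached an unadjusted p under 0.05 in that direction. The median change was -1.22 for histone genes and -0.06 for all genes. The fall covered 5 of 5 H1, 9 of 17 H2A, 16 of 19 H2B, 8 of 12 H3 and 9 of 13 H4 genes. The median of the H4 family was -2.82, and that of the H2A family -0.94. In the 2 library runs with both times the median over members was -0.93 and -1.23. The count was 27 without 0 h replicate 2 and 27 without 24 h replicate 3.

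**Figure D1:**
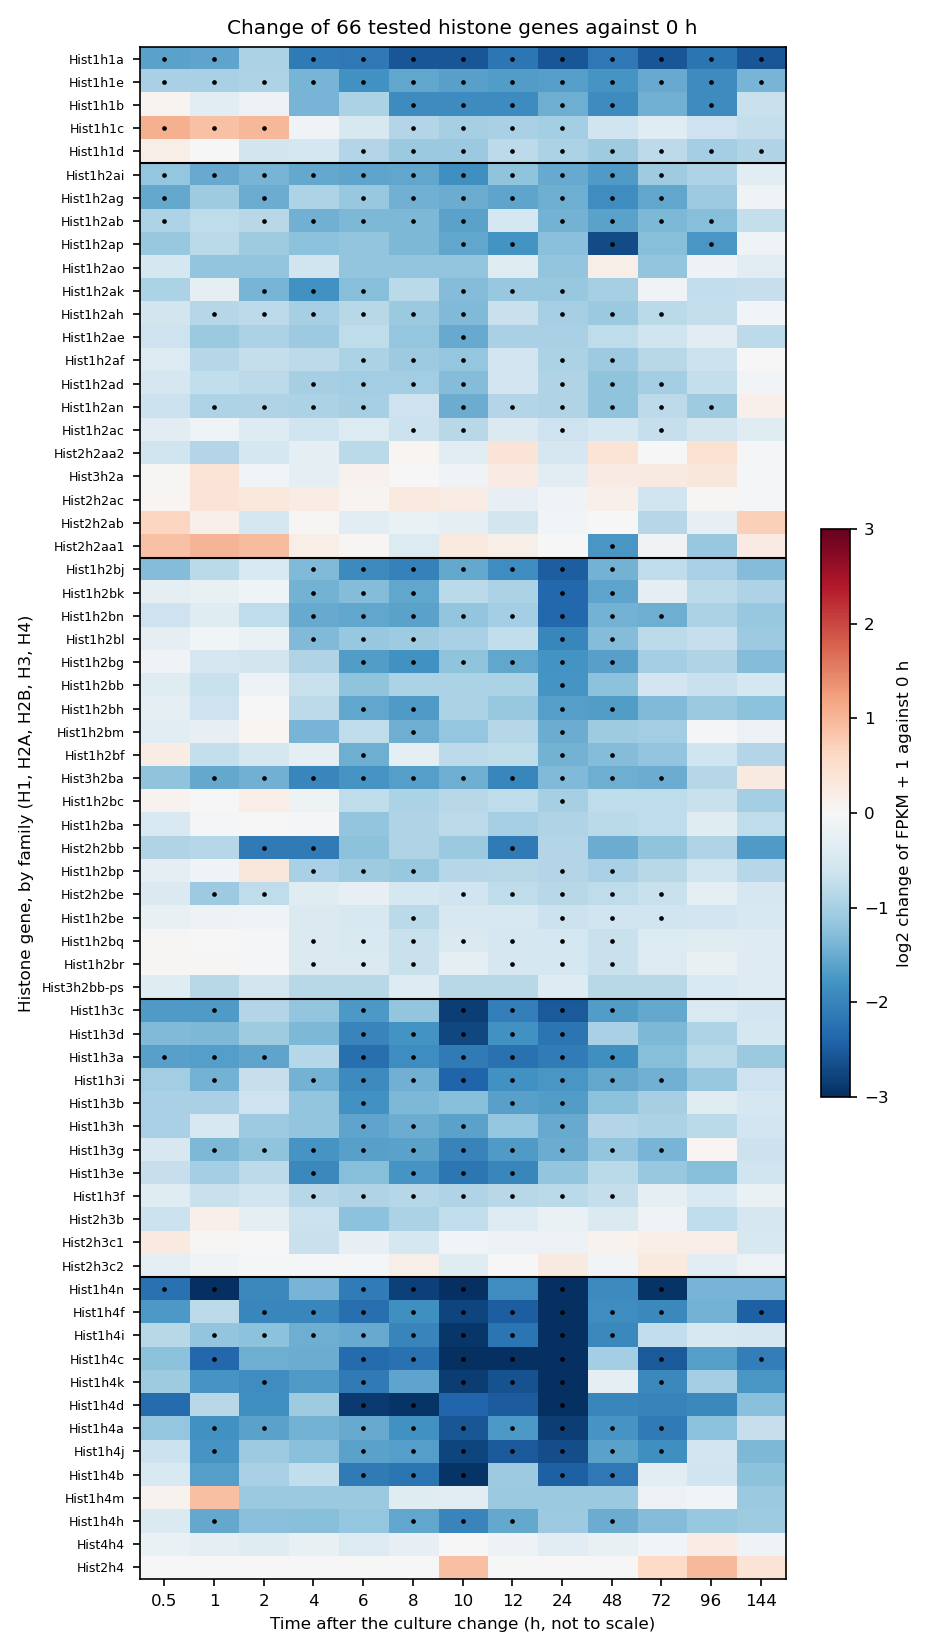
Colours show the log2(FPKM + 1) change against 0 h (3 libraries each) of the 66 tested histone genes at 13 times, ordered by family and by the 24 h change. Dots mark genes called by limma at an adjusted p under 0.05. The scale ends at 3 in each direction, so larger falls share the darkest blue. Blue covers most Hist1 genes from 4 h to 48 h, with dots on 39 genes at 6 h and 47 at 24 h, and Hist1h1c alone has dots in red.

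The number in the symbol names the gene cluster, and the members were also grouped by it. This grouping was chosen after the values were seen, and is given as a description. Of the 52 tested genes named Hist1, 38 were lower at 6 h, 45 at 24 h and 20 at 72 h, with medians of -1.30, -1.49 and -1.03. Leaving out 1 library took these counts down to as few as 18, 26 and 8. Of the 14 named Hist2, Hist3 or Hist4, 1 was lower at 6 h, 2 at 24 h and 2 at 72 h, with medians of -0.30, -0.25 and -0.11. Those 2 genes at 24 h were Hist3h2ba and Hist2h2be. Hist3h2ba lost that call without any 1 of the 0 h libraries or without 24 h replicate 2 or 3 (adjusted p = 0.0528 to 0.187). The mean FPKM over the 42 libraries had a median of 2.84 in the Hist1 genes and 1.81 in the others, and ranged from 0.439 to 13 and from 0.306 to 9.31. Among the others, Hist2h4 was listed at 0 in 39 of 44 libraries, Hist3h2bb-ps in 36, Hist2h2bb in 25 and Hist3h2ba in 23. Among the Hist1 genes, Hist1h1a was listed at 0 in 28 and Hist1h1b in 25. A gene near 0 FPKM has little room to fall, which limits the contrast. All 50-base words of Hist2h2aa1, Hist2h2aa2, Hist2h2bb, Hist2h3b and Hist2h3c1 were shared with another annotated gene, and in Hist1 genes up to 97.3%. Over the fits that left out 1 library, the 24 h median stayed between -1.73 and -1.29 for Hist1 genes and between -0.50 and -0.13 for the others. Scaled to the blood-cell markers, the medians at 24 h were -0.35 and 0.98, with 9 of 52 Hist1 genes lower and 5 higher, and 7 of the 14 others higher and 0 lower, where 79% of all genes were called higher and their median was 1.66. A test of the difference between the sets was not made.

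**Figure D2:**
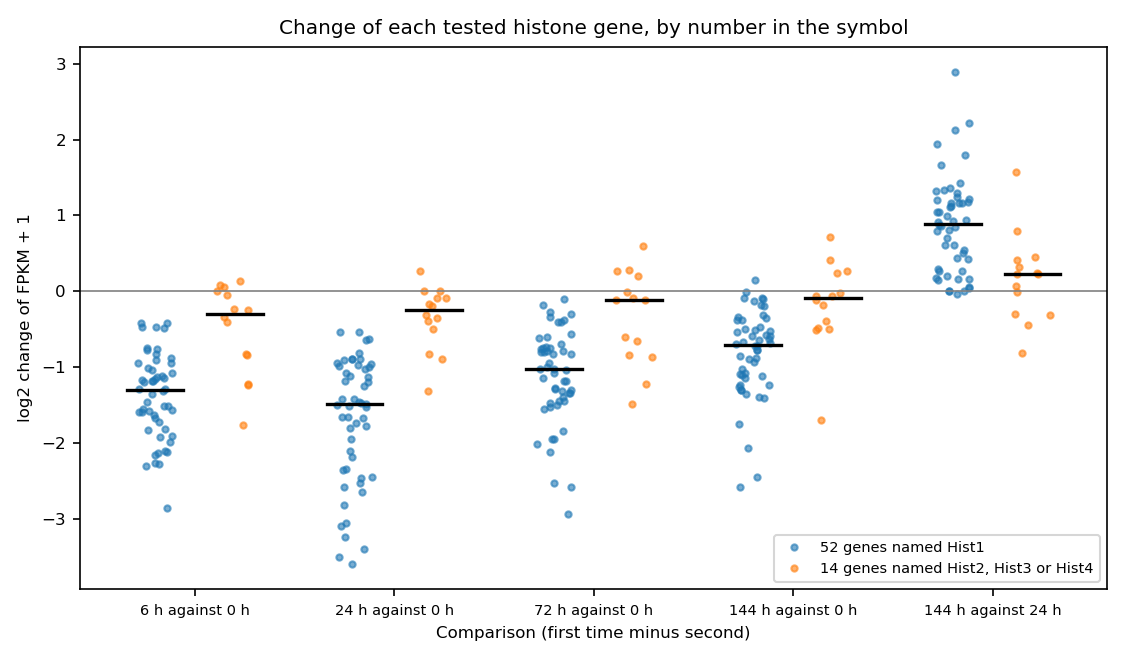
Each point is 1 tested histone gene, and black bars are medians. The vertical axis is the log2(FPKM + 1) change of the first time minus the second. The 52 Hist1 genes (blue) lie mostly below the 14 Hist2, Hist3 and Hist4 genes (orange) at 6 h and 24 h, with medians of -1.49 and -0.25 at 24 h.

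Among the linker histones, Hist1h1c went its own way at first. This gene encodes a somatic H1 variant, and its level was 13.3, 13.5 and 13.5 FPKM at 0 h. It stood at 25.1, 27.3 and 37.1 at 0.5 h, at 18.8, 22.1 and 39 at 1 h, and at 21.8, 27.9 and 35.0 at 2 h. All 9 early libraries were above all 3 at 0 h. The rise was 1.08 ± 0.31 (SE) on the log2 scale at 0.5 h (limma, adjusted p = 0.0108), 0.87 ± 0.31 at 1 h (limma, adjusted p = 0.0287) and 1.00 ± 0.31 at 2 h (limma, adjusted p = 0.0116).

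No other member was called higher at those 3 times, when 14.3%, 16.8% and 16.5% of all genes were. In the other direction, 7 members were called lower at 0.5 h, 17 at 1 h and 16 at 2 h, against 7.29%, 15.3% and 18.5% of all genes. The Hist1h1c call was lost at 0.5 h without replicate 2 of that time (adjusted p = 0.068) and at 2 h without replicate 1 (adjusted p = 0.0691). At 1 h it was lost when replicate 1 of that time (adjusted p = 0.208) or any 1 of the 0 h libraries was left out (adjusted p = 0.0595 to 0.066). All 22 stromal markers were already called higher at these 3 times, with medians of 2.48, 2.54 and 2.35. With the stromal mean as a covariate the Hist1h1c calls were lost, at 0.85, 0.62 and 0.75 (adjusted p = 1, 0.936 and 0.818). Under the blood-cell scaling the 3 rises were 1.92, 1.92 and 2.08. Without it the blood-cell markers had medians of -0.93, -1.20 and -1.21 at these times, so the scaling raises other genes too. Medians of all genes on that scale are not given for these times, so these values are not read as a larger rise. The part of library composition in the Hist1h1c rise was not tested. By 24 h Hist1h1c was at 3.06, 6.96 and 10.1 FPKM, below all 0 h libraries. That fall was 1.02 ± 0.31 on the log2 scale (limma, adjusted p = 0.00759). Its size and call depended on 24 h replicate 3, without which the change was -0.61 (adjusted p = 0.12), and its direction turned under scaling to the blood-cell markers, to 0.86.

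The other linker histones were low. Hist1h1a, another somatic H1, was at 3.02, 5.41 and 7.18 FPKM at 0 h and was listed at 0 in all 3 libraries of each of 24, 72 and 144 h. It was called lower at each of these times (limma, adjusted p = 5.5e-05, 0.000131 and 0.000561). It was at 1.57 in the 120 h library and listed at 0 at 168 h. Hist1h1t was listed at 0 in 43 of 44 libraries.

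The largest falls at 24 h among the tested members were those of the H4 genes Hist1h4n, Hist1h4f and Hist1h4i. Hist1h4i was at 21.5, 21.5 and 30.5 FPKM at 0 h, at 5.35, 9.01 and 9.90 at 6 h, and at 0.231, 2.28 and 2.40 at 24 h. It came back to 11.1, 12.2 and 20.4 at 72 h and to 13.9, 16.2 and 21 at 144 h, with 19.3 at 120 h and 10.1 at 168 h. No library overlapped between 0 h, 6 h and 24 h. The change was -1.51 ± 0.42 at 6 h (limma, adjusted p = 0.00499) and -3.40 ± 0.42 at 24 h (limma, adjusted p = 1.33e-07). With the blood-cell scaling, the 6 h change was 0.0024.

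Hist1h4n was at 10.4, 16.4 and 24.8 FPKM at 0 h. At 24 h it was listed at 0 in 1 library and was at 0.685 and 0.695 in the others, a change of -3.60 ± 0.80 (limma, adjusted p = 0.000451). To the digits given, these are the levels listed below for Hist1h4c. Hist1h4n shared 85.6% of its 50-base words with another annotated gene, so its level is uncertain for this gene alone. Hist1h4f went from 4.43, 12.6 and 18.7 FPKM to a listed 0 in all 3 libraries at 24 h (limma, adjusted p = 6.18e-05). Both carry the same stem-loop form, printed above for Hist1h4n.

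Hist1h4c went from 9.03, 10.2 and 20.3 FPKM at 0 h to 0.662, 2.38 and 2.59 at 6 h, a change of -2.30 ± 0.66 (limma, adjusted p = 0.00587). At 24 h it was at 0, 0.685 and 0.695, values identical in each library to those of Hist1h4a. Hist1h4d changed by -2.86 ± 1.05 at 6 h (limma, adjusted p = 0.0311), and its call was lost without 0 h replicate 2 (adjusted p = 0.122), 6 h replicate 1 (0.0766) or 6 h replicate 2 (0.125). Its F test did not pass (adjusted p = 0.28). Hist1h4b, at 6.07, 13.2 and 20.3 FPKM at 0 h, changed by -2.45 ± 0.75 at 24 h (limma, adjusted p = 0.00846), with an adjusted p of 0.0501 without 0 h replicate 2.

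Among H3 genes, Hist1h3a was at 4.38, 4.42 and 9.10 FPKM at 0 h and at 0, 0.339 and 0.950 at 6 h. The libraries did not overlap, and the change was -2.27 ± 0.59 (limma, adjusted p = 0.00246). At 144 h 2 of its libraries were at 0.908 and 1.03 and the other at 6.57, within the 0 h range.

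**Figure D3:**
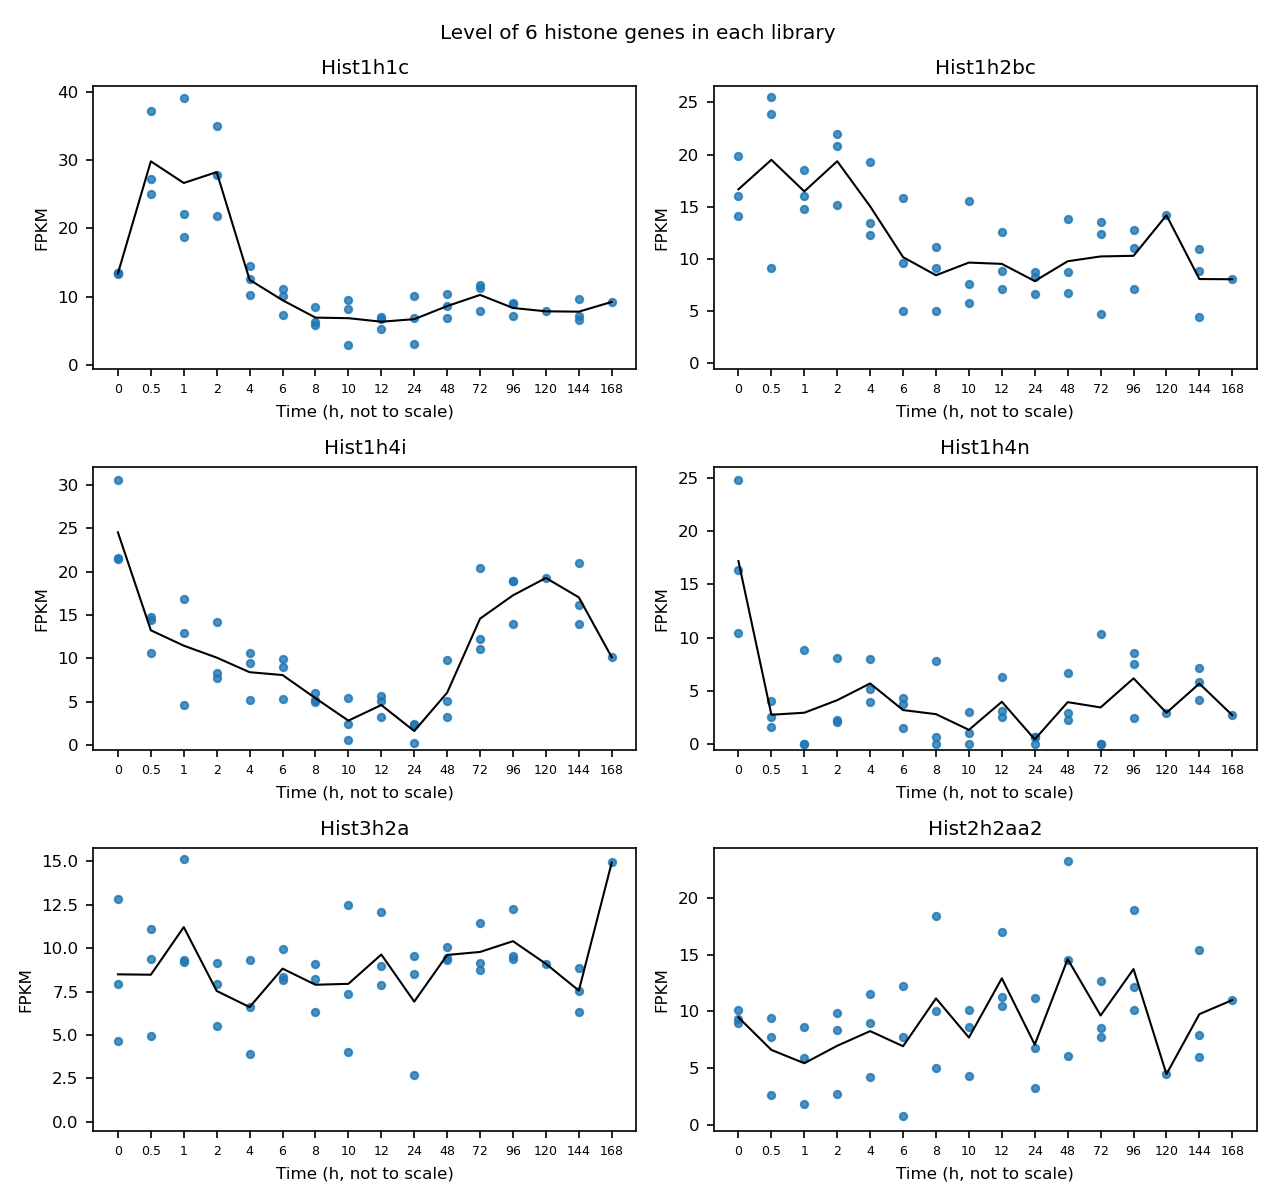
Points are the FPKM of single libraries of 6 histone genes at each time, and lines join the means. Hist1h1c rises above 25 FPKM in all 3 libraries at 0.5 h, Hist1h4i sits at or under 2.40 at 24 h and returns to at least 13.9 at 144 h, and Hist3h2a and Hist2h2aa2 show overlapping levels throughout.

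Several of the most abundant H2A genes were not among those that fell. Hist3h2a was at 4.68, 7.96 and 12.8 FPKM at 0 h, at 8.14, 8.35 and 9.96 at 6 h, and at 2.71, 8.49 and 9.55 at 24 h. Its change was 0.14 ± 0.35 at 6 h and -0.31 ± 0.35 at 24 h (limma, adjusted p = 0.794 and 0.511). Hist2h2aa2 was at 8.94, 9.36 and 10.1 FPKM at 0 h and at 3.23, 6.79 and 11.2 at 24 h, where the change was -0.50 ± 0.59 (limma, adjusted p = 0.526). Hist2h2ac changed by -0.09 ± 0.56 at 24 h (limma, adjusted p = 0.917). None of these 3 passed the F test (adjusted p = 0.661, 0.456 and 0.954). Scaled to the blood-cell markers, all 3 were called higher at 24 h, by 1.48, 1.35 and 1.58, each below the median of all genes on that scale (1.66). Hist2h2aa1, whose words are all shared, passed the F test (adjusted p = 0.0329) but none of the 6 comparisons.

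Of the H2B genes, Hist1h2bc was at 14.1, 16.0 and 19.9 FPKM at 0 h and at 6.60, 8.26 and 8.79 at 24 h. The libraries did not overlap, and the change was -0.99 ± 0.40 (limma, adjusted p = 0.0427). This call was lost when any 1 of the 6 libraries was left out (adjusted p = 0.0549 to 0.134), and the change turned to 0.96 under scaling to the blood-cell markers. Hist2h2be was at 3.04, 4.04 and 5.70 FPKM at 0 h and at 1.32, 2.01 and 2.54 at 24 h, a change of -0.82 ± 0.24 (limma, adjusted p = 0.00652). Without 0 h replicate 3 the adjusted p was 0.0563, and the change was 0.73 under scaling to the blood-cell markers. The 3 genes with known polyadenylated transcripts were thus all called lower at 24 h without that scaling.

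Of the H2B genes, Hist1h2ba is best known from testis, and Hist3h2ba was placed in the same gene list. Hist3h2ba was at 2.36, 2.93 and 3.53 FPKM at 0 h, at 0, 0 and 0.518 at 6 h, and at 3.37, 3.77 and 3.95 at 144 h. Its fall at 6 h was -1.77 ± 0.52 (limma, adjusted p = 0.00735). Hist1h2ba changed by -1.18 ± 0.52 at 6 h (limma, adjusted p = 0.0735), and its libraries overlapped. Its adjusted p was 0.0226 without 6 h replicate 3 and 0.0363 without 0 h replicate 1. Hist1h2aa was at most 0.324 FPKM in any library and listed at 0 in 38 of 44.

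Between 6 h and 24 h little more was called. Hist1h4i was the 1 member called lower, against 1.11% of all genes, and no member was called higher, against 0.964%. At an unadjusted p under 0.05, 5 members were lower and 0 higher. The Hist1h4i change was -1.89 ± 0.42 (limma, adjusted p = 0.0151). Without 6 h replicate 1, 6 h replicate 3 or 24 h replicate 3 its adjusted p was 0.0713, 0.0646 and 0.135. The median change over members was -0.08.

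By 72 h fewer histone genes were below their 0 h level. Here 22 of 66 were called lower, against 8.23% of all genes, and none higher, against 17.2% (also 0 at an unadjusted p under 0.05). The median change was -0.85. The largest falls among called members were those of Hist1h4n, Hist1h1a and Hist1h4c. Hist1h4n was listed at 0 in 1 library, at 0.0003 in another and at 10.4 FPKM in the last, a change of -2.94 ± 0.80 (limma, adjusted p = 0.00592), with an adjusted p of 0.0633 without 72 h replicate 3. Hist1h4c changed by -2.53 ± 0.66 (limma, adjusted p = 0.00415), with an adjusted p of 0.0591 without that library. The count was 9 without 0 h replicate 2, 14 without 72 h replicate 2 and 8 without 72 h replicate 3. It was 13 with a pseudocount of 0.1, 12 with library runs as a block, and 7 with only the 6 libraries of these times in the fit.

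At 144 h, 5 of 66 were called lower than at 0 h, against 3.24% of all genes, and none was called higher, against 5.64% (0 at an unadjusted p under 0.05, with 21 lower). They were Hist1h1a, Hist1h1d, Hist1h1e, Hist1h4c and Hist1h4f. In each the libraries of the 2 times did not overlap, again without such a count over all called genes. Hist1h1d and Hist1h1e were named here after their values were seen. Hist1h1e, a somatic H1, averaged 3.81 FPKM at 0 h and 0.732 at 144 h, a change of -1.40 ± 0.35 (limma, adjusted p = 0.00924). Hist1h4f changed by -2.45 ± 0.66 (limma, adjusted p = 0.0153) and Hist1h4c by -2.07 ± 0.66 (limma, adjusted p = 0.0434). The count was 1 without 0 h replicate 1, 1 without 0 h replicate 2 and 2 without 144 h replicate 3. Without those libraries Hist1h4f had adjusted p of 0.0726, 0.105 and 0.122 and Hist1h4c of 0.0937, 0.19 and 0.137. Without 144 h replicate 1 that of Hist1h4c was 0.127.

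From 24 h to 144 h the direction was upward. Of the 66, 13 were called higher, against 17.4% of all genes, a share close to the background. None was called lower, against 15.6% (0 at an unadjusted p under 0.05, with 22 higher). The median over members was 0.75, against 0.08 over all genes. The rises comprised 5 H2A, 3 H2B, 2 H3, 3 H4 and no H1 genes, 12 of them named Hist1. Hist1h4i rose by 2.89 ± 0.42 on the log2 scale (limma, adjusted p = 5.33e-06). Hist1h4n changed by 2.21 ± 0.80 (limma, adjusted p = 0.0316) and Hist1h4a by 2.13 ± 0.57 (limma, adjusted p = 0.00445). Hist3h2ba changed by 1.58 ± 0.52 (limma, adjusted p = 0.0191).

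These later calls rested on few libraries. The count was 2 without 24 h replicate 3 and 4 without 144 h replicate 2. Hist1h4n lost its call without 24 h replicate 1 or 3 or 144 h replicate 1 or 2 (adjusted p = 0.0928, 0.0564, 0.0685 and 0.0935). Hist1h4a lost it without 144 h replicate 2 (0.0575), and Hist3h2ba without 24 h replicate 2 (0.1) or 24 h replicate 3 (0.113). The count of members called higher was 6 with library runs as a block and 5 with only these 6 libraries in the fit, and the 1 run that holds both times gave a median of 0.64. Scaled to the blood-cell markers, which were all called higher over this interval, 1 histone gene was higher and 8 lower, against 1.53% and 75.3% of all genes, with the median of all genes at -1.34 and that of the members at -0.25. With the stromal mean as a covariate 1 was higher.

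In these poly(A)-selected libraries, values of genes that act in the same cell cycle phase did not follow the histone values closely. Poly(A) selection depletes stem-loop messages, so the histone values do not measure the bulk of histone RNA. Whether feeder cells added to the values of the replication genes was not tested. Of 30 DNA replication genes tested, 13 fell at 6 h and none rose, against 19.2% and 19% of all genes, with a median of -0.44. At 24 h 3 were lower and 2 higher, against 22.5% and 20.8% of all genes, with a median of -0.17. At 144 h 7 were higher than at 0 h, against 5.64% of all genes, and 14 were higher than at 24 h, against 17.4%. None was lower in either, against 3.24% and 15.6% of all genes. Mcm5, a subunit of the replicative helicase, was at 55.9, 67.7 and 68.7 FPKM at 0 h and at 34.6, 35.3 and 38.3 at 6 h, a change of -0.81 ± 0.19 (limma, adjusted p = 0.000987). At 24 h its change was -0.35 ± 0.19 (limma, adjusted p = 0.143). Pcna, the sliding clamp of DNA polymerases, changed by -0.23 ± 0.18 at 6 h and by 0.04 ± 0.18 at 24 h (limma, adjusted p = 0.326 and 0.897). Rrm2, a subunit of ribonucleotide reductase, changed by 0.14 ± 0.28 at 24 h (limma, adjusted p = 0.731). On the blood-cell scale Mcm5, Pcna and Rrm2 changed by 0.78, 1.39 and 1.5 at 6 h.

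A difference taken within each library does not depend on how libraries are scaled before the logarithm, apart from the pseudocount, which weighs on genes near 1 FPKM. It still depends on how far poly(A) selection depleted the histone messages, and on any feeder-cell RNA. The mean log2 level of the 66 histone genes minus that of the 30 DNA replication genes was -2.63 ± 0.21 (SD, n = 3) at 0 h and -3.41 ± 0.23 by 6 h. It was -3.92 ± 0.13 by 24 h, -3.59 ± 0.06 by 72 h and -3.70 ± 0.13 by 144 h. The 0 h libraries, between -2.80 and -2.39, lay above all those at 6 h (-3.61 to -3.17), 24 h (-4.03 to -3.78) and 144 h (-3.85 to -3.59). The same difference from the blood-cell markers was -4.37 ± 0.10 at 0 h, -3.93 ± 0.31 by 6 h, -3.64 ± 0.44 by 24 h and -4.65 ± 0.34 by 144 h. With a pseudocount of 0.1 the difference from DNA replication genes went from -3.02 at 0 h to -4.48 at 6 h and -5.25 at 24 h, so that it was lower at both times with either pseudocount. The difference from the blood-cell markers had no such fixed direction. With a pseudocount of 0.1 it was -4.81 ± 0.06 at 0 h, -5.03 ± 0.53 at 6 h and -4.97 ± 0.34 at 24 h, with overlapping libraries, so that the higher mean at 6 h and 24 h rests on the pseudocount of 1.

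**Figure D4:**
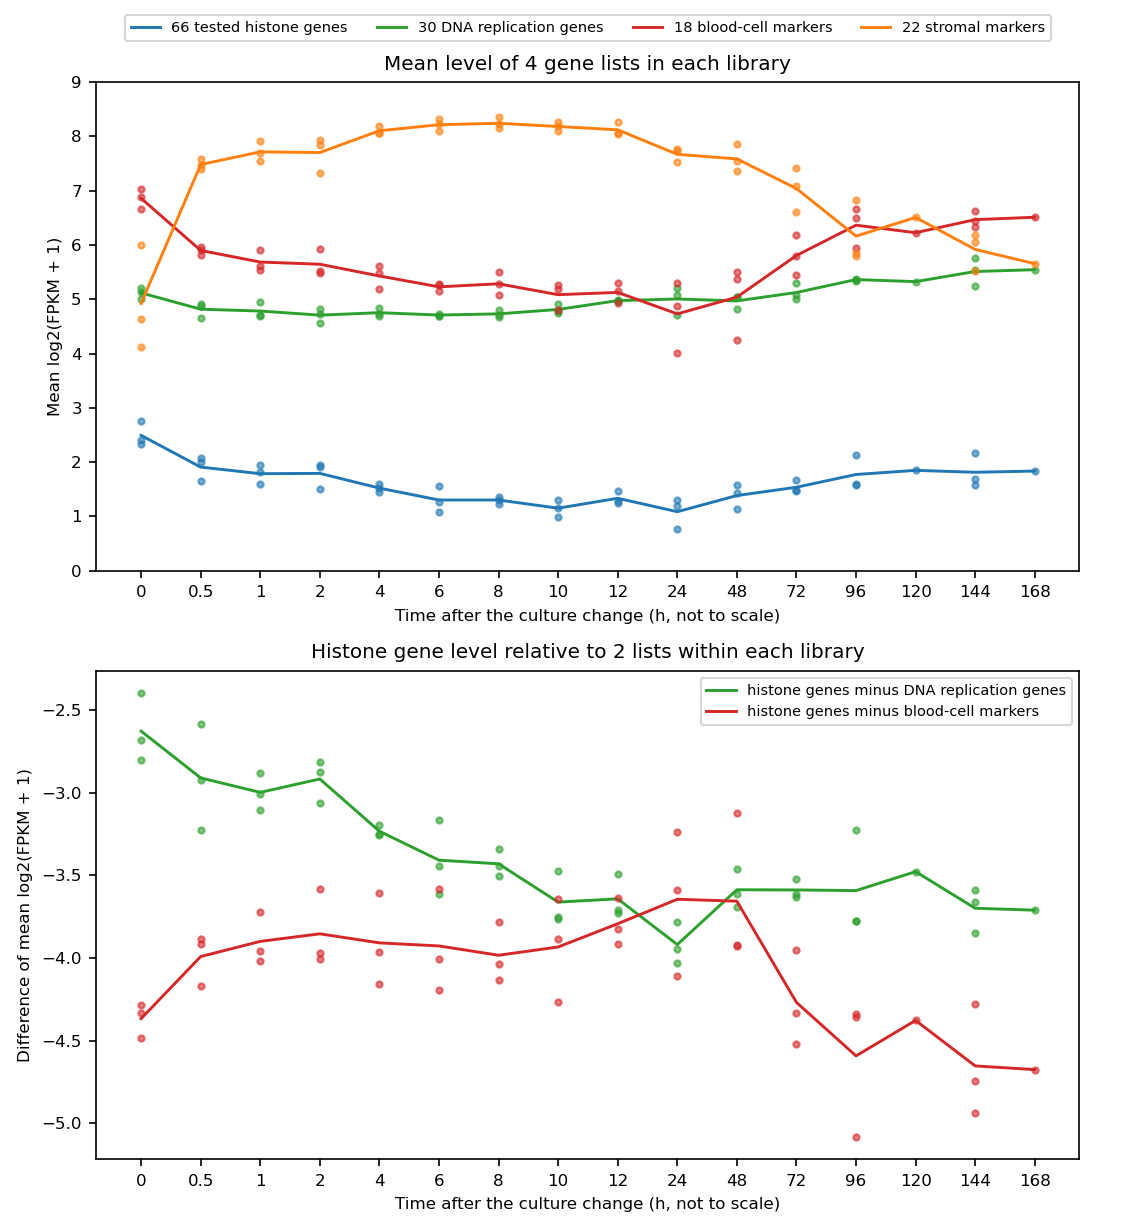
Points are single libraries and lines join the means over the 3 libraries of a time (1 at 120 h and 168 h). Above, the mean log2(FPKM + 1) of 4 lists: histone genes and blood-cell markers fall after 0 h while stromal markers rise. Below, the histone mean minus the mean of another list in the same library: against DNA replication genes it goes from -2.63 at 0 h to -3.92 at 24 h, and against blood-cell markers from -4.37 to -3.64, a direction that turns with a pseudocount of 0.1 (-4.81 to -4.97).

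The genes that make and process histone messages were also measured. Of 24 such genes tested, 7 fell and 1 rose at 6 h, against 19.2% and 19% of all genes. At 24 h 7 fell and 1 rose, against 22.5% and 20.8% of all genes. At 144 h 9 were higher and 1 lower than at 24 h, against 17.4% and 15.6% of all genes. Slbp was at 51.9, 86.0 and 89.8 FPKM at 0 h, at 46.4, 57.4 and 67.2 at 6 h, and at 54.3, 69.8 and 73.9 at 24 h. Its change was -0.38 ± 0.21 at 6 h and -0.17 ± 0.21 at 24 h (limma, adjusted p = 0.146 and 0.539), with -0.63 and an adjusted p of 0.0182 at 6 h without 0 h replicate 3. Npat, the coactivator of histone gene transcription in S phase, changed by -0.08 ± 0.21 and 0.13 ± 0.21 at 6 h and 24 h (limma, adjusted p = 0.804 and 0.663). On the blood-cell scale Slbp changed by 1.22 and Npat by 1.29 at 6 h.

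Replication-independent histones are variants whose production is not confined to S phase, mostly from ordinary polyadenylated messages. Of 11 tested, 6 fell and 3 rose at 6 h, against 19.2% and 19% of all genes. At 24 h 5 fell and 3 rose, against 22.5% and 20.8% of all genes. H1f0, a linker variant linked with cells that stop dividing, was at 39, 54.6 and 63.1 FPKM at 0 h and at 107, 128 and 153 at 24 h. It rose by 1.30 ± 0.20 on the log2 scale (limma, adjusted p = 3.38e-06). With the stromal mean as a covariate its change was 0.037 (adjusted p = 0.986). H2afz, which encodes H2A.Z, changed by -1.02 ± 0.38 at 6 h and -1.13 ± 0.38 at 24 h (limma, adjusted p = 0.0341 and 0.0165). Without 0 h replicate 1 these were -0.62 and -0.73 (adjusted p = 0.261 and 0.162), and both turned under scaling to the blood-cell markers, to 0.61 and 0.99. H3f3b, which encodes H3.3, changed by -0.05 ± 0.18 and 0.06 ± 0.18 (limma, adjusted p = 0.866 and 0.813). Of 21 histone chaperone genes tested, 12 fell and 1 rose at 6 h, and 6 fell and 2 rose at 24 h, against the same shares of all genes.

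Promoters were taken from RefSeq (build GRCm38.p6, windows of 300 bases around the start, most of them before it), and 61 of the 68 members matched an entry. They are described as sequences only, and motifs were not compared with the changes. Motifs were searched on both strands by exact letters. TATAAA was in 35 of 61 (13.6% of all 32851 promoters hold it). CCAAT was in 52 of 61 (37.4% of all), in every H1, H2A, H2B and H3 promoter and in 3 of 12 of the H4 family. The octamer ATTTGCAT was in 14 (1.74% of all), 7 of 17 H2A and 7 of 16 H2B. Windows of some neighbouring H2A and H2B genes overlap, as those of Hist1h2aa and Hist1h2ba do. The same octamer can then be counted in both families. The H1 box AAACACA was in 9 (7.18% of all), among them 5 of 6 H1 promoters. GGTCC, the core of an H4 promoter element, was in 27 (45.5% of all) and in 11 of 12 of the H4 family. A match describes these letters only and shows no binding.

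The promoter of Hist1h1c (chr13:23738557-23738856, + strand) holds the letters of the H1 box and the CCAAT box. That of Hist1h4i (chr13:22041313-22041612, - strand) holds the letters TATAAA, and GGTCC on either strand. The letters found in Hist1h1c are also in the promoters of Hist1h1b, Hist1h1d, Hist1h1e and Hist1h1t. Of these, Hist1h1e was called lower than at 0 h at all 13 times tested. A link between motifs and changes was not tested. The distance of a match from the start was not used, so TATAAA here need not be a placed TATA box. The matches are in capitals.
Hist1h1c: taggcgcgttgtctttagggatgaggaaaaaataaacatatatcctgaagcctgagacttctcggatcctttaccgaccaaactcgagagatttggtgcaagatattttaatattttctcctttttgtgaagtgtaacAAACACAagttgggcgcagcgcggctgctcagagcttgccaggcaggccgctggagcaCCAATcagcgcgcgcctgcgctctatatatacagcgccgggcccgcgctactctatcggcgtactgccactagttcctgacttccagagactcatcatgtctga
Hist1h4i: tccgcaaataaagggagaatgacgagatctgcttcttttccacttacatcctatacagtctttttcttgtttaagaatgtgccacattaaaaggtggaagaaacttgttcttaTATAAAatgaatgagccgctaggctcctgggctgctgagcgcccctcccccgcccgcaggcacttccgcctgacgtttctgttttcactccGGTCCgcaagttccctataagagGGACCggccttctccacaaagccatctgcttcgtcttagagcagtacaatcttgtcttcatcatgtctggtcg

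**Figure D5:**
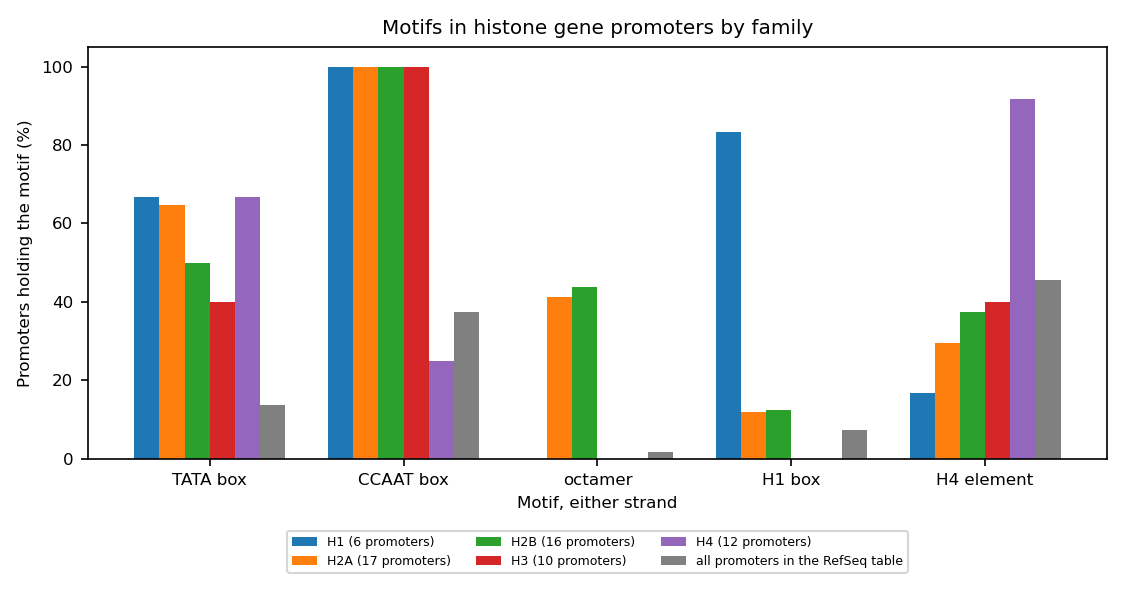
Bars give the percentage of promoters with each motif on either strand, for the histone genes of each family and, in grey, for all promoters in the RefSeq table. CCAAT stands at 100% in 4 families and 25% in H4, GGTCC (the H4 element) at 91.7% in H4, and the octamer appears in H2A and H2B alone among the 5 families.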

How the data were processed

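Poly(A)-selected RNA was sequenced from 44 libraries on an Illumina HiSeq instrument. The authors deposited 1 table of FPKM values for 23234 genes, described by its name as corrected; what was corrected is not stated. Per the submitters' processing notes, TopHat2 2.1.0, Cufflinks 2.1.1 and the mm9 build were used; settings, annotation and the treatment of fragments that match several genes are not given in the sources used here.

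The members and gene lists were chosen with earlier results of these data known. FPKM holds no counts, so sequencing depth is known only as the relative estimate and no counting interval is given. The 13907 genes that reached 1 FPKM or more in 3 or more of 42 libraries (those of replicated times) were fitted with limma 3.58.1 in R 4.3.3 on log2(FPKM + 1), with 1 mean per time, a trended variance and Benjamini-Hochberg adjustment over all genes; genes with adjusted p under 0.05 were called. With 3 against 3 libraries an exact permutation test cannot go below 0.1. The single libraries at 120 h and 168 h were described only. The text names the 8 members with the highest mean and the 3 largest called rises and falls of each comparison. It also names members with known polyadenylated transcripts, those listed as testis genes, and 8 other genes fixed in a list. Of the 66 tested members, 1 (Hist1h2be) passed the filter only through its 0 h libraries. Alternatives were another pseudocount, no filter, quantile normalization, scaling without small RNA genes or to blood-cell markers, the stromal mean as a covariate, replicate or library-run blocks, a 2-fold threshold, only the compared times, each library left out, and, chosen after seeing the data, a filter on the libraries after 0 h and a pseudocount of 0.1 in the within-library differences.

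Same-numbered libraries were checked for shared deviations from their group means. At 6 h against 0 h the correlations were 0.13, 0.05 and 0.10, and the numbers were not taken as pairs. All 3 libraries still correlated best with their own number at 6 h, 24 h and 144 h against 0 h, so small shared deviations remain. At 0 h and 6 h the number also coincides with the library-code run. A fit with the replicate number as a block is among the alternatives. The fit was tested on simulated data. Stem-loops and promoters come from GENCODE M21 and RefSeq on GRCm38, a later build than the authors' mm9; they are sequence descriptions and were not joined to the values by coordinate. Of the list of histone message genes 24 of 26, and of the chaperones 21 of 22, were in the table.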

Additional observations from a re-analysis of the deposited data

How the results depend on the processing

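The counts of members past the threshold moved as follows. Scaled to the blood-cell markers, 1 member was lower and 4 higher for 6 h, 9 lower and 12 higher for 24 h, 3 lower and 1 higher for 72 h, and 0 lower for 144 h; from 24 h to 144 h 1 was higher and 8 lower, and 18 differed at any time. With the stromal covariate 0 members were lower at each of 6, 24 and 72 h and 1 at 144 h, 1 was higher from 24 h to 144 h, and 18 differed at any time. With a pseudocount of 0.1, 24 were lower at 6 h, 13 at 72 h and 1 at 144 h. With library runs as a block, 12 were lower at 72 h and 6 higher from 24 h to 144 h. With only the compared times in the fit, 7 were lower at 72 h, 1 at 144 h and 0 from 6 h to 24 h, and 5 were higher from 24 h to 144 h; that fit has fewer samples. For the others the cause was not tested. Leaving out 1 library gave 19 to 39 lower for 6 h, 27 to 42 for 24 h, 8 to 20 for 72 h and 1 to 5 for 144 h, and 0 to 1 from 6 h to 24 h, with 2 to 15 higher from 24 h to 144 h; without 1 replicate number 15 to 22 differed at any time. The replicate block (39, 47, 24 and 6 lower at 6, 24, 72 and 144 h, and 13 higher from 24 h to 144 h), no filter, quantile normalization, scaling without small RNA genes, a 2-fold threshold and the filter on libraries after 0 h (39, 46, 21 and 5 lower, chosen after seeing the data) left every count within 1.5 times.

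The blood-cell scaling multiplies all FPKM of a library alike, and log2(FPKM + 1) of low genes moves less. Medians of all genes became 1.21 at 6 h, 1.66 at 24 h, 0.85 at 72 h and -1.34 from 24 h to 144 h. A change that runs against the shift of its gene and is smaller than that shift turns sign by construction. Of the named genes, those called with or without the scaling that turned are given here (log2). Changes called in neither fit are left out. At 6 h they were Hist1h1c 0.99, Hist1h4i 0.0024, Hist2h2be 0.94, Slbp 1.22, Npat 1.29, H2afz 0.61, H3f3b 1.58, Pcna 1.39, Mcm5 0.78 and Rrm2 1.5. At 24 h they were Hist1h1c 0.86, Hist1h2bc 0.96, Hist2h2aa2 1.35, Hist3h2a 1.48, Hist2h2ac 1.58, Hist2h2be 0.73, Slbp 1.92, H2afz 0.99 and Mcm5 1.74. From 24 h to 144 h they were Hist1h1c -1.19, Hist3h2a -1.24, Hist2h2ac -1.34, Hist2h2be -0.90, Slbp -1.20, H2afz -0.60, Pcna -1.20, Mcm5 -1.26 and Rrm2 -1.54. At 72 h they were Hist2h2be 0.11, Slbp 0.89, Npat 0.84 and Mcm5 0.77. The stromal covariate turned others, counted in the same way; the cause was not tested. At 24 h they were Hist1h2bc 0.067, Hist3h2ba 0.38 and H2afz 1.01. At 6 h they were Hist1h4b 0.0099, Hist1h4c 0.49, Hist1h4f 1.18, Hist1h4a 0.86, Hist3h2ba 0.26, H2afz 1.54 and H1f0 -0.86. At 72 h they were Hist1h4f 0.27 and H1f0 -0.037. From 24 h to 144 h they were H2afz -0.23 and Pcna -0.11. The table holds no fragment counts, so the precision of single FPKM values is not known; the relative depth read from steps in low values ranged from 0.549 to 2.27. With a pseudocount of 0.1, chosen after seeing the data, the change since 0 h of the histone mean minus the blood-cell mean turned to -0.22 at 6 h, -0.16 at 24 h and -0.55 at 72 h.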
